A study of Mus musculus with 2 samples.

Results

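The claudin and tight junction genes described here are 10 mouse genes, Cldn1, Cldn3, Cldn4, Cldn7, Cldn8, Cldn10, Cldn12, Cldn23, Ocln and Tjp1. They were chosen by symbol, with earlier results of these data known. All 10 had a row in the table, and the table held 18724 rows in all. RNA was sequenced from mouse prostate luminal cells purified by FACS, which had either kept a histone 2B-GFP label (label-retaining cells, LRC, 1 library) or lost it (non-LRC, 1 library), both from mice aged 18 weeks. A label carried on a histone is diluted at each division, so that rarely dividing cells keep it longer. The study's title describes the label-retaining luminal cells as progenitors that resist castration, and the comparison asks how their RNA differs from that of the other luminal cells. The sources used here do not give the promoter that drives the label, the genotype, how many mice were pooled or which surface markers defined the sort.

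Tight junctions seal the space between neighbouring epithelial cells near their apical side and keep apical and basolateral membrane proteins apart. Claudins are the membrane proteins that form the strands of the junction, and the mix of claudins in a cell sets how tight the seal is and which ions pass. Occludin (Ocln) is a further strand protein, and ZO-1 (Tjp1) is a scaffold inside the cell that binds claudin tails and links them to actin. In glands such as the prostate, the luminal cells border the secretion and carry the tight junctions.

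The library of LRC held 50689229 gene reads and the library of non-LRC 48334265. Since each group is a single library, the spread between replicates is unknown and no test was made. Every statement compares these 2 libraries, not the conditions, and the 95% intervals (exact, Clopper-Pearson) cover counting error only. Luminal markers were abundant in both libraries, with 5.22% of reads in LRC and 1.49% in non-LRC for 10 genes led by Tgm4, the prostate transglutaminase. Markers of other cells were not at 0. The 10 basal markers held 0.0651% of reads in LRC and 0.915% in non-LRC, none of them at 0 reads in either library, and all 10 were at least 2-fold lower in LRC. Of 8 leukocyte markers, 6 were lower in LRC, with 0.00178% of reads in LRC and 0.0339% in non-LRC for all 8, and the killer-cell gene Gzma was at 0 reads in LRC. The other 2, Cd68 and Csf1r, were less than 2-fold apart. Cd68 had 412 reads in LRC and 578 in non-LRC, and Csf1r had 205 in LRC and 154 in non-LRC. Endothelial markers were lower in 5 of 7 and smooth muscle markers in 5 of 5, while fibroblast markers split, with 2 higher and 2 lower of 5. The fibroblast markers together held 0.0201% of reads in LRC and 0.201% in non-LRC. Most of these were from Dcn, with 4930 reads in LRC and 92262 in non-LRC. These counts use the 2-fold rule given below, which called 14.5% of all measured genes higher and 19.4% lower. All 6 seminal vesicle secretion genes were higher in LRC, with 0.166% of reads in LRC and 0.00175% in non-LRC.

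Among the members, 4 claudin genes were higher in LRC, Cldn1 alone was lower, and the other 5 members were less than 2-fold apart. The rule called a gene higher or lower when its normalised count differed at least 2-fold and the counting interval excluded equality. It was applied to the 17183 genes whose normalised count averaged 10 or more over both libraries, which all 10 members reached. By this rule 14.5% of those genes were higher and 19.4% lower in LRC, 33.8% together, against 5 of the 10 members. Since the members were chosen with earlier results of these data known, this comparison is not a test of enrichment. The median log2 ratio (LRC over non-LRC) was 0.70 over the members and -0.0052 over all measured genes. The scaling between the libraries matters for these counts, because 2 libraries hold no check of it. The deposited size factors gave 2483 higher and 3330 lower genes. Dividing by total reads moved every ratio by -0.20 and gave 1917 higher and 4001 lower, scaling on the luminal keratins Krt8 and Krt18 moved them by -0.78 and gave 903 and 7128, and scaling on the epithelial adhesion genes Epcam and Cdh1 moved them by 0.36 and gave 4099 and 2443. Epcam and Cdh1 themselves went opposite ways, with log2 ratios of 0.82 and -0.79 under the deposited scaling. Of the 10 members, 2 were higher and 1 lower when scaled on the keratins, where 5.23% of all measured genes were higher and 41.3% lower. Scaled on Epcam and Cdh1, 5 members were higher and 1 lower, where the shares over all measured genes were 23.9% and 14.2%. With the deposited scaling and a 1.5-fold threshold, 5 members were higher and 1 lower, against 24.2% and 26.8% of all measured genes. At 4-fold, 1 member was higher and 1 lower, against 4.32% and 9.64%. The median of the members was -0.09 under the keratin scaling and 1.05 when scaled on Epcam and Cdh1.

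Cldn4 was by far the most abundant member in both libraries. Claudin-4, the product of Cldn4, is a sealing claudin and a receptor for the enterotoxin of Clostridium perfringens. Its level per length was 194664 normalised counts per kilobase of exon in LRC and 151374 in non-LRC, which placed it 12th in LRC and 10th in non-LRC among the 18634 genes with an exon length. It had 354258 reads in LRC and 302195 in non-LRC, a 1.29-fold difference (interval 1.28 to 1.29, log2 ratio 0.36) that lay below the 2-fold rule. The direction of this difference was not stable, since under the keratin scaling the log2 ratio was -0.42.

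Cldn3 had the largest ratio among the higher members. Claudin-3 is a sealing claudin that binds the same enterotoxin as claudin-4. Cldn3 had 27282 reads in LRC and 5784 in non-LRC, which is 5.17-fold more in LRC (interval 5.03 to 5.32, log2 ratio 2.37). Its level was 21624 normalised counts per kilobase in LRC, next after Cldn4, against 4179 in non-LRC, where Cldn4 and Cldn1 were above it. Over the 7 scalings tried, the log2 ratio of Cldn3 stayed between 1.59 and 2.73.

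Cldn3 and Cldn4 are neighbours on chromosome 5 (mm10, also called GRCm38). Cldn3 (ENSMUSG00000070473.4) lies on the plus strand at chr5:134986214-134987472, and Cldn4 (ENSMUSG00000047501.3) on the minus strand at chr5:134945119-134946934. Their start sites are 39.3 kb apart and point away from each other, with no other protein-coding gene between them in GENCODE M21. The 2 genes differed in their ratio between the libraries. There were 77.0 Cldn3 reads per 1000 Cldn4 reads in LRC (interval 76.1 to 78.0) and 19.1 in non-LRC (18.6 to 19.6), a quotient of 4.02 that no scaling between libraries can change. The coding sequences of Cldn3 and Cldn4 were also the most alike of the 28 claudin pairs, with 69.8% identity over the alignment, against a lowest value of 41.6% for Cldn8 and Cldn23. Their longest identical coding stretch, shown because it is where these neighbours are most alike, was 35 bases long, and the median over the 28 pairs was 10 bases. Exons outside the coding sequence were not compared, and how the counting treated reads shared between genes was not tested.
Cldn3 and Cldn4 shared coding stretch: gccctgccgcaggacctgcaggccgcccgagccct

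Upstream sequences are shown for the member that was lower (Cldn1), for Cldn3 and Cldn7 among the higher members, and for Cldn4 as the neighbour of Cldn3. RefSeq promoter windows (GRCm38.p6) were matched for 8 of the 10 members, without the higher members Cldn8 and Cldn23. The start of the Tjp1 window lies 156537 bases from the GENCODE gene start. Each sequence gives the 250 bases before the annotated start, 5′ to 3′ on the strand of the gene. Capitals mark the E-box CACCTG (or CAGGTG on the other strand), which repressors such as Snai2 and Zeb1 are known to bind.
Cldn1 at chr16:26371840-26372089, minus strand: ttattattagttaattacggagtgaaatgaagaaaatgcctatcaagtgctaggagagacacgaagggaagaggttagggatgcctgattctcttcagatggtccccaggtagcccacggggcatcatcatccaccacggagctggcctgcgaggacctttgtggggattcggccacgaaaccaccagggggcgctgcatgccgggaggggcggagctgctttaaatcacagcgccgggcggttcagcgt
Cldn3 at chr5:134985964-134986213, plus strand: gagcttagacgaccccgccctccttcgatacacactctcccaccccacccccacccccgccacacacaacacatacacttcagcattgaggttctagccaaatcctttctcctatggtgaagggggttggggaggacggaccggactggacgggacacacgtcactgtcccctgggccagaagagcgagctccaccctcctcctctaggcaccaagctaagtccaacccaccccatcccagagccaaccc
Cldn4 at chr5:134946935-134947184, minus strand: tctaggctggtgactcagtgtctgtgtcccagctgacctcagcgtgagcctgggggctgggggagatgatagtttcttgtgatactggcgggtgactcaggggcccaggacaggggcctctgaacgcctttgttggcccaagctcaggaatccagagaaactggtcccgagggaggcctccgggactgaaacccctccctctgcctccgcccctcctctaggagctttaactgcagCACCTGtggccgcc
Cldn7 at chr11:69964529-69964778, plus strand: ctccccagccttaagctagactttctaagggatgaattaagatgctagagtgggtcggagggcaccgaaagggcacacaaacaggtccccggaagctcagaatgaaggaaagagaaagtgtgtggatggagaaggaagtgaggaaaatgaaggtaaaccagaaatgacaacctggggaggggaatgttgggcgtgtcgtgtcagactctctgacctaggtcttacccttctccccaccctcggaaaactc
The E-box was found in 1 of the 8 member windows, that of Cldn4, where it begins 14 bases before the start, and in 17.2% of all 32851 windows. The grainyhead-like motif AACCNGTT (AACNGGTT on the other strand) was in 0 of the 8 windows and in 1.79% of all windows. With no match of the second motif in these windows, no matches overlapped, and a match describes letters, not binding.

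Cldn8, Cldn7 and Cldn23 were the other members higher in LRC. Claudin-8 is a barrier claudin best known from the distal nephron, where it interacts with claudin-4. Cldn8 had 6290 reads in LRC and 1859 in non-LRC, a 3.71-fold difference (3.52 to 3.91, log2 ratio 1.89). Claudin-7 sits largely on lateral membranes and binds the adhesion molecule EpCAM. Cldn7 had 6941 reads in LRC and 2267 in non-LRC, a 3.36-fold difference (3.20 to 3.52, log2 ratio 1.75). Cldn23 encodes a less studied claudin of differentiated intestinal epithelium. It had 1015 reads in LRC and 347 in non-LRC, a 3.21-fold difference (2.84 to 3.64, log2 ratio 1.68) whose wider interval reflects its lower counts. Scaled on the luminal keratins, Cldn3 and Cldn8 still passed 2-fold, while Cldn7 and Cldn23 did not, at log2 ratios of 0.96 and 0.90.

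Cldn1 went the other way. Claudin-1 is the barrier claudin that mice need to hold water in the skin, and it is made by many stratified and basal epithelial cells. Cldn1 (ENSMUSG00000022512.2, chr16:26356642-26371841, minus strand) had 1772 reads in LRC and 31869 in non-LRC. It was 16.4-fold lower in LRC (interval 15.6 to 17.2, log2 ratio -4.03), and its log2 ratio stayed between -4.82 and -3.68 over the 7 scalings. Its level per length was 365 normalised counts per kilobase in LRC, the eighth of the 10 members, and 5988 in non-LRC, the second.

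The Cldn1 value was set beside those of marker genes. The 10 basal markers had log2 ratios from -4.78 to -2.29 with a median of -4.50. Among them was the basal keratin gene Krt5 at -4.77, and Cldn1 lies within that range. The range was not particular to basal markers. It also held the fibroblast gene Dcn at -4.09, the smooth muscle gene Myh11 at -3.52 and the leukocyte gene Cd3e at -3.21. Of the 5 fibroblast markers, 2 were higher in LRC. Trp63, which encodes the basal factor p63, was at -4.74 and starts 688 kb from Cldn1 on chromosome 16, with P3h2 the one protein-coding gene between them. There were 1842 Cldn1 reads per 1000 Krt5 reads in LRC (interval 1702 to 1994) and 1109 in non-LRC (1092 to 1127), so Cldn1 differed less between the libraries than Krt5 did. The part of basal or other cells in the Cldn1 value was not tested. In such bulk samples fewer cells of a type and less RNA per cell cannot be told apart. The higher claudins shared their direction with 5 of the 10 luminal markers, of which 0 were lower, and with the 6 seminal vesicle genes. The same rule called 14.5% of all measured genes higher. The seminal vesicle genes had larger log2 ratios, of at least 4.25, against 1.68 (Cldn23) to 2.37 (Cldn3) for these claudins. The part of cell composition in the values of the higher claudins was likewise not tested.

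**Figure D1:**
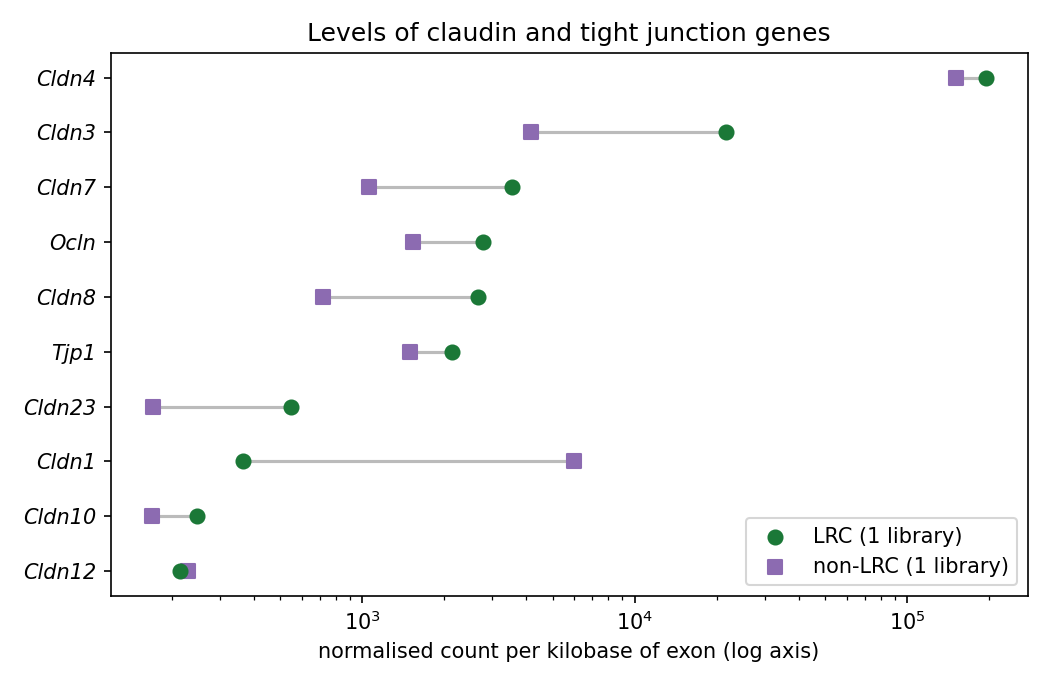
Level of each member in the library of LRC (circles) and of non-LRC (squares), as normalised counts per kilobase of exon on a log axis, 1 library each with no error bar. Cldn4 lies near 194664 in LRC and 151374 in non-LRC, and Cldn1 is the member with the widest gap, 365 in LRC against 5988 in non-LRC.

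Occludin and the scaffold differed less than the called claudins. Ocln had 11703 reads in LRC and 7140 in non-LRC, a 1.798-fold difference (1.75 to 1.85, log2 ratio 0.85). Tjp1 had 16724 reads in LRC and 12819 in non-LRC, a 1.43-fold difference (1.40 to 1.46, log2 ratio 0.52). Both were on the higher side in LRC under the deposited scaling, but under the keratin scaling Ocln was at 0.06 and Tjp1 at -0.27. Scaled on Epcam and Cdh1, Ocln passed 2-fold at 1.20. There were 700 Ocln reads per 1000 Tjp1 reads in LRC (interval 683 to 717) and 557 in non-LRC (541 to 573).

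Cldn10 and Cldn12 were low and differed little under the deposited scaling. Cldn10, whose isoforms form paracellular ion channels, had 644 reads in LRC and 483 in non-LRC (log2 ratio 0.55, interval 0.38 to 0.72), and the sign turned under the keratin scaling, at -0.23. Cldn12, a widely expressed claudin outside the classic group, had 906 reads in LRC and 1066 in non-LRC. Its log2 ratio was -0.10 with an interval of -0.23 to 0.03, so at this depth no difference was detectable for Cldn12 under the deposited scaling. The log2 ratio of Cldn12 was above 0 under 1 of the 7 scalings, at 0.26 when scaled on Epcam and Cdh1. Under the keratin scaling it was -0.88.

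**Figure D2:**
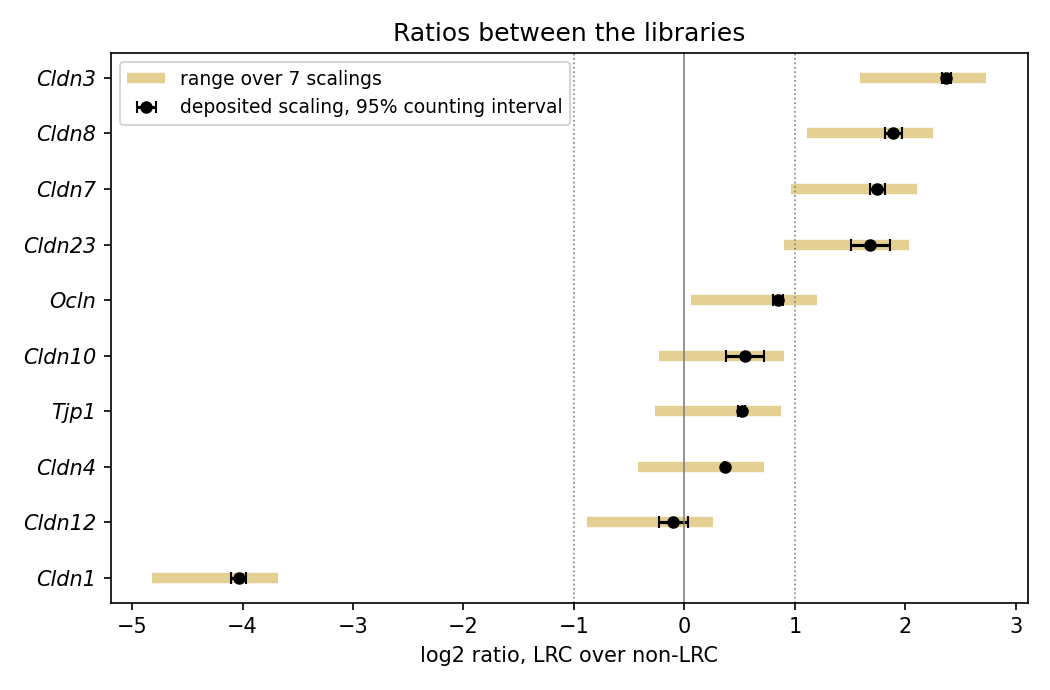
Log2 ratio of LRC over non-LRC for each member, with the deposited scaling (points, bars are 95% counting intervals) and the range over 7 scalings (wide bands), and dotted lines at 2-fold. Cldn3, Cldn8, Cldn7 and Cldn23 keep bands above 0 and Cldn1 keeps a band below 0, whereas the bands of Cldn4, Cldn10, Cldn12 and Tjp1 cross 0.

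The order of levels per length also differed between the libraries. In LRC it was Cldn4, Cldn3, Cldn7, Ocln, Cldn8, Tjp1, Cldn23, Cldn1, Cldn10 and Cldn12, from high to low. Neighbours in that order were apart by more than their counting intervals except Ocln and Cldn8, at 2766 and 2664 normalised counts per kilobase in LRC. In non-LRC the order was Cldn4, Cldn1, Cldn3, Ocln, Tjp1, Cldn7, Cldn8, Cldn12, Cldn23 and Cldn10. There Ocln and Tjp1, at 1538 and 1493, had overlapping intervals, and so had Cldn23 and Cldn10, at 171 and 169.6.

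Within the pool of the 8 claudin members, the second claudin was a different gene in each library. Shares within a library do not depend on the scaling between libraries. By level per kilobase, Cldn4 made up 86.9% of the pool in LRC and 92.4% in non-LRC, Cldn3 9.66% in LRC and 2.55% in non-LRC, and Cldn1 0.163% in LRC and 3.65% in non-LRC. Cldn7 held 1.59% in LRC and 0.646% in non-LRC, and Cldn8 1.19% in LRC and 0.438% in non-LRC. The direction for Cldn4 depends on the length correction. By reads alone, with no length, its share was 88.8% in LRC (interval 88.7 to 88.9) and 87.4% in non-LRC (87.3 to 87.5), the reverse order. Cldn1 has 4841 annotated exon bases against 1816 in Cldn4, so it weighs more in a share of reads.

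**Figure D3:**
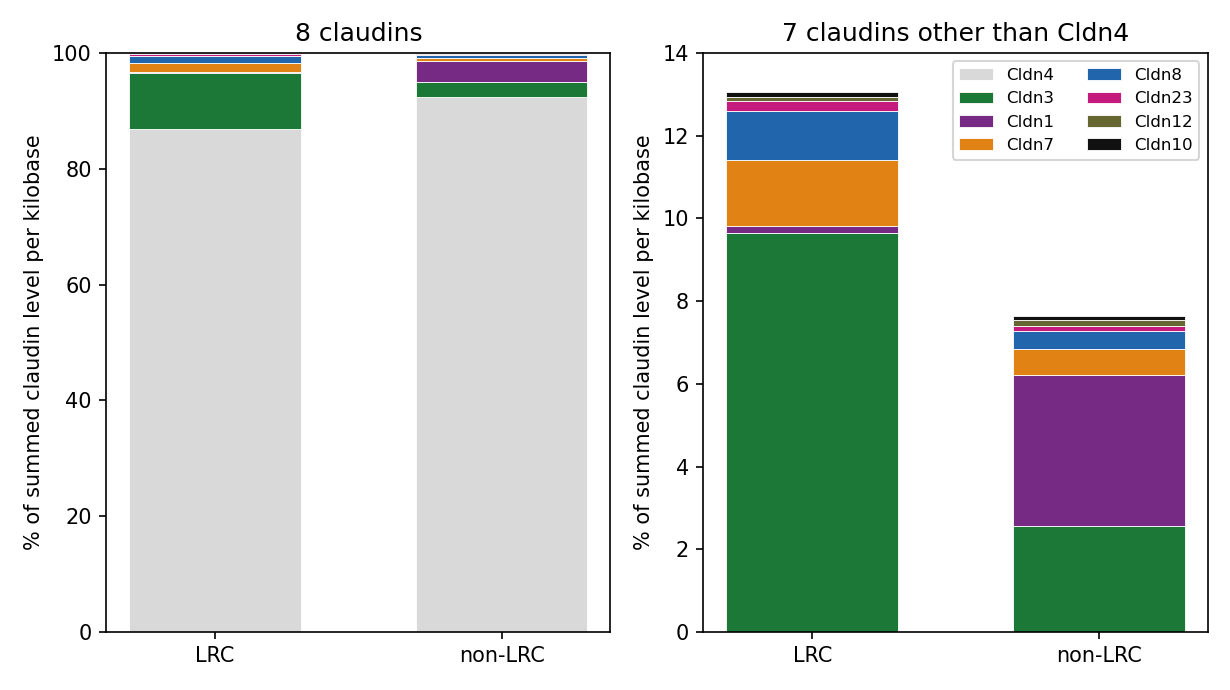
Share of each claudin in the summed level per kilobase of the 8 claudin members, in LRC (left bar of each panel) and non-LRC (right bar), with all 8 genes in the left panel and the 7 others without Cldn4 in the right panel on a smaller axis. Cldn3 takes 9.66% in LRC and 2.55% in non-LRC, and Cldn1 0.163% in LRC and 3.65% in non-LRC.

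Reads of the other called members were also set against those of Cldn4 within each library, which needs no scaling. There were 5.002 Cldn1 reads per 1000 Cldn4 reads in LRC (interval 4.77 to 5.24) and 105 in non-LRC (104 to 107), a 21.1-fold lower value in LRC. Cldn7 stood at 19.6 reads per 1000 Cldn4 reads in LRC (19.1 to 20.1) and 7.50 in non-LRC (7.20 to 7.82). For Cldn8 the values were 17.8 in LRC (17.3 to 18.2) and 6.15 in non-LRC (5.87 to 6.44). Cldn1 against Cldn3 was the widest pair of those computed, with 65.0 Cldn1 reads per 1000 Cldn3 reads in LRC and 5510 in non-LRC. By contrast Cldn3 kept close to 2 luminal genes that were themselves higher in LRC. It did not keep close to the luminal keratin gene Krt8 or the seminal vesicle gene Svs2. There were 14.6 Cldn3 reads per 1000 Tgm4 reads in LRC (14.4 to 14.8) and 15.1 in non-LRC (14.8 to 15.5), and 294 Cldn3 reads per 1000 reads of the luminal keratin gene Krt19 in LRC (290.3 to 298) and 321 in non-LRC (312 to 331). Against Krt8 there were 184 Cldn3 reads per 1000 in LRC (182 to 186) and 64.8 in non-LRC (63.1 to 66.5). Against Svs2 there were 415 in LRC (409 to 421) and 10077 in non-LRC (9247 to 10998). Cldn7 did not keep step with the gene of its binding partner, with 142 reads per 1000 Epcam reads in LRC (138 to 145) and 74.2 in non-LRC (71.0 to 77.4). These pairs were chosen after the values of the genes were seen.

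The other genes of the junction showed calls in both directions. Of 87 listed genes that are not members, 75 had a row and 70 were measured, of which 11 were higher and 18 lower, 41.4% called against 33.8% of all measured genes. Their median log2 ratio was -0.22. The lists these genes come from, described below, were also chosen with earlier results known, so their called shares do not test enrichment. Most of the higher calls depend on the scaling, since 2 genes (Crb3 and Nectin4) were higher and 35 lower when the libraries were scaled on Krt8 and Krt18, where 5.23% of all measured genes were higher and 41.3% lower.

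Apart from the claudin-domain gene Cldnd1, the remaining claudins were scarce. Of 23 listed, 11 had a row and the other 12 were not analysed here. These 11 together held 0.00269% of reads in LRC and 0.00403% in non-LRC, most of it from Cldnd1, with 1204 reads in LRC and 1698 in non-LRC (log2 ratio -0.36). Cldnd1 stood at 469 normalised counts per kilobase in LRC and 603 in non-LRC, above the members Cldn10 and Cldn12 in both libraries. Of 6 measured, 0 were higher and 1 was lower, 16.7% called against 33.8% of all measured genes. The lower gene was Cldn14, with 6 reads in LRC and 28 in non-LRC, named here after its value was seen. Cldn5, the claudin of endothelial cells and one of the endothelial markers, had 47 reads in LRC and 83 in non-LRC.

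Other membrane proteins of the junction had 4 higher and 1 lower of 12 measured genes, with a median log2 ratio of 0.30. That is 41.7% called, against 33.8% of all measured genes. Crb3, the apical polarity protein Crumbs3, had 4074 reads in LRC and 1136 in non-LRC (1.98, interval 1.88 to 2.07). Igsf5, an immunoglobulin-like junction protein, was at 1.73 (1.60 to 1.86), and Marveld3, a relative of occludin, at 1.21 (1.09 to 1.33). The most abundant of the list, F11r, which encodes the junctional adhesion molecule JAM-A, had 11796 reads in LRC and 13221 in non-LRC (-0.03, interval -0.067 to 0.005). Its interval included 0. The sign turned when scaled on Epcam and Cdh1. It also turned by total reads without the 100 most abundant genes, which moved every ratio by 0.07.

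Plaque and polarity genes had 3 higher and 7 lower of 26, with a median of -0.02. Their called share, 38.5%, was near the 33.8% of all measured genes. Tjp3, encoding the scaffold ZO-3, a relative of ZO-1, had 2232 reads in LRC and 717 in non-LRC (1.77, 1.65 to 1.90). The polarity genes Pard6b and Pard6g, paralogs whose products bind atypical protein kinase C, also went apart. Pard6b had 5200 reads in LRC and 1776 in non-LRC (1.68, 1.61 to 1.76), and Pard6g had 282 reads in LRC and 3067 in non-LRC (-3.31, -3.49 to -3.13). The kinase gene Prkcz was higher at 1.26 (1.09 to 1.43). Ybx3, encoding the ZO-1-associated factor ZONAB, was lower at -1.82 (-1.87 to -1.77), as was the angiomotin-like gene Amotl1 at -1.64 (-1.67 to -1.61).

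Adherens junction genes had 1 higher and 2 lower of 10, with a median of -0.51. Their called share, 30%, was near the 33.8% of all measured genes. Cdh1, which encodes E-cadherin, was the most abundant, with 77310 reads in LRC and 146957 in non-LRC (-0.79, -0.81 to -0.78). Cdh3, the P-cadherin gene known from basal cells, had 493 reads in LRC and 13002 in non-LRC (-4.59, -4.72 to -4.46). The nectin genes differed among themselves, with Nectin4 higher at 2.09 (1.91 to 2.27) and Nectin1 lower at -4.17 (-4.26 to -4.08). Cdh3 and Nectin1 lay, like Cldn1, within the range of the basal markers, which was not particular to basal genes.

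Partners and regulators of claudins had 3 higher and 7 lower of 16, with a median of -0.41. That is 62.5% called, against 33.8% of all measured genes. Epcam, the most abundant, had 49032 reads in LRC and 30562 in non-LRC (0.82, 0.79 to 0.84). The epithelial transcription factor genes Ehf and Grhl1 were higher, at 1.45 (1.42 to 1.47) and 1.14 (1.09 to 1.19), and so was Zeb2, encoding an E-box-binding repressor, with 1356 reads in LRC and 729 in non-LRC (1.03). Among grainyhead-like genes, Grhl3 was lower, with 37 reads in LRC and 522 in non-LRC (-3.67, -4.21 to -3.20). Snai2, a repressor that binds E-boxes, had 54 reads in LRC and 1139 in non-LRC (-4.25, -4.69 to -3.87), and the repressor gene Zeb1 was at -2.27 (-2.45 to -2.10).

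**Figure D4:**
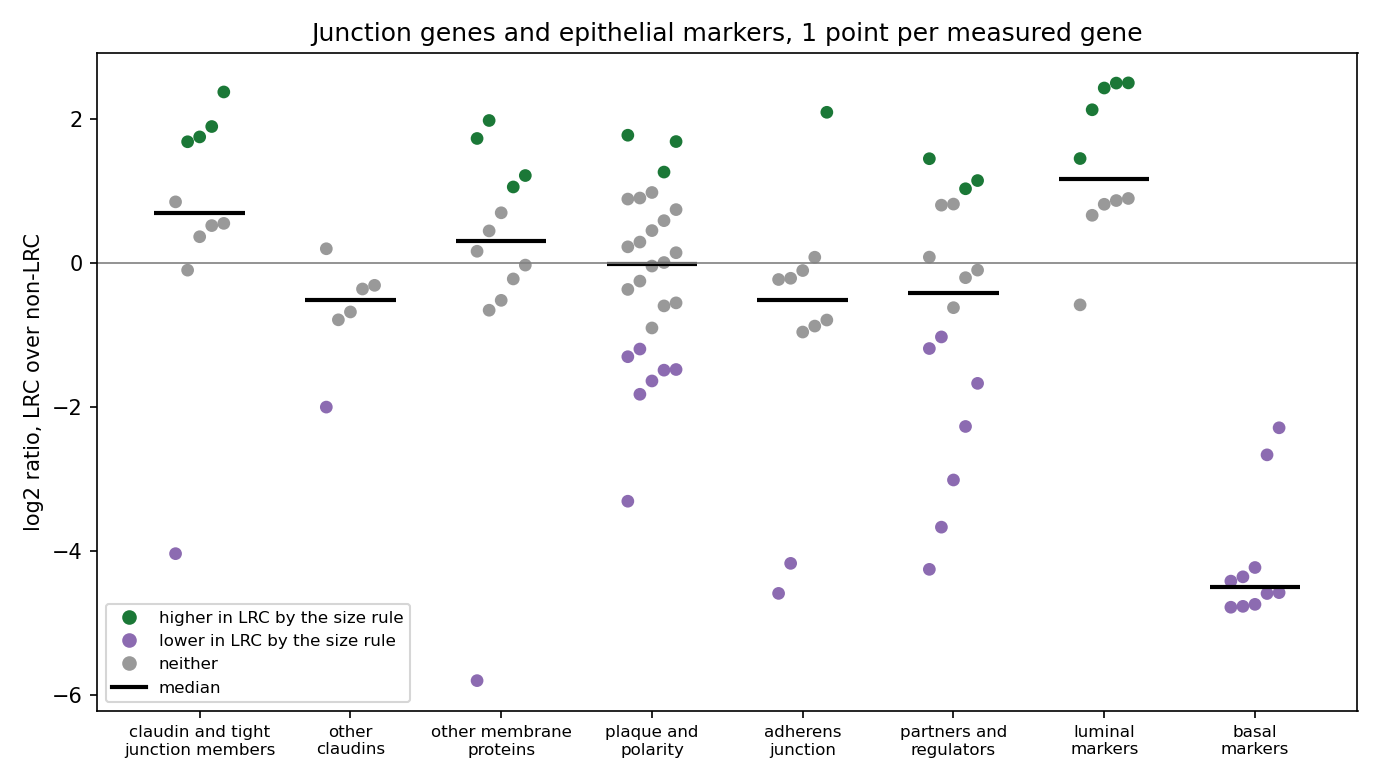
Log2 ratio of LRC over non-LRC for every measured gene of the members, of 5 junction lists and of the luminal and basal markers, 1 point per gene, coloured by the 2-fold size rule, with the median of each list as a line. The members have a median of 0.70 and the basal markers of -4.50, and the lowest point, Bves, had 0 reads in LRC, so that its place depends on the pseudocount.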

How the data were processed

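RNA was measured in 1 library of LRC and 1 of non-LRC. The deposited values are a normalised signal. They are read counts after division by a single size factor for each library, as their steps show: 100% of values were whole multiples of a step within 0.001. The size factors were 1.00 (LRC) and 1.10 (non-LRC). The submitters' processing notes name the mm10 build with DESeq 1.16.0, HTSeq 0.6.0, Bowtie2 2.1.0, TopHat2 2.0.10 and CASAVA 1.8.2, without roles. The sources used here do not state the annotation, the strand setting or the handling of shared reads. Cldn3 shares 40 exon bases with the antisense gene Wbscr25, which had 47 reads in LRC and 18 in non-LRC.

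Symbols, positions and lengths of all annotated exons came from GENCODE M21. Ratios (LRC over non-LRC) used a pseudocount of 0.5, and intervals the recovered reads (Python 3.11.15, scipy 1.17.1). The calculation was tested on simulated counts. TMM factors came from edgeR 4.0.16. Alternatives covered scaling, pseudocount, filter and threshold. The text names all members and, per list, up to 3 called genes in each direction with at least 50 normalised counts, farthest from equality, plus the most abundant, of which 1 is not reported here. The members and lists were chosen with earlier results of these data known. With 2 libraries, no genes of like pattern were sought.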

Additional observations from a re-analysis of the deposited data

How the results depend on the processing

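Over 6 other scalings and a pseudocount of 5, the log2 ratios of Cldn3, Cldn7, Cldn8, Cldn23 and Cldn1 kept their sign. Scaled on Krt8 and Krt18, 2 members were higher (Cldn3 and Cldn8), and of the other junction genes 2 were higher and 35 lower, where all measured genes gave 5.23% higher and 41.3% lower. Scaled on Epcam and Cdh1, 19 of 71 other junction genes were higher and 14 lower, against 23.9% and 14.2% of all measured genes, but both scaling genes are on these lists and Epcam is among the 19. A 1.5-fold threshold gave 19 higher and 27 lower of 70, against 24.2% and 26.8% of all measured genes. A 4-fold threshold left 1 member higher (Cldn3), with 1 higher and 9 lower of the other junction genes, against 4.32% and 9.64% of all measured genes. The changes at these thresholds follow from the thresholds. The keratin and Epcam shifts follow from the scaling, since every ratio moves by the same amount. The Cldn4 share of the pool was 88.8% in LRC and 87.4% in non-LRC by reads alone. With the length of the longest protein-coding transcript, added after seeing the data, it was 86.2% in LRC and 90.4% in non-LRC, and the Cldn1 share 0.241% in LRC and 5.33% in non-LRC. No paired analysis was possible because each group has 1 library. Leaving out a replicate was not possible either.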
